A study of Mus musculus with 2 samples.

Results

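Heme synthesis and degradation was followed through 9 genes, Alas1, Alad, Uros, Urod, Cpox, Ppox, Fech, Hmox1 and Blvrb, taken by symbol from a table of 15348 genes in mouse liver. Each of the 9 was present in the table. The OTD group was a pool of 5 female NOG-TKm30 mice given 0.6% ortho-toluidine (OTD, an aromatic amine) for 1 week and then 0.3% for 3 weeks, by a route not given in the sources used here. The Control group was a pool of 3 female NOG-TKm30 mice given 0% for the same 4 weeks, and the labels give an age of 16 weeks for both. Both groups carried the same transgene, mutant clone 30 of the thymidine kinase of herpes simplex virus, driven by the transthyretin gene's enhancer and promoter, on the NOG background, which lacks T, B and NK cells. Per the labels' treatment text the mice were C57BL, against the strain label, and the word Wild in the table's column names has no stated meaning.

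RNA was mixed before library preparation, so each group was 1 library and the spread between mice or pools was not measured. The OTD library held 14685193 reads and the Control library 13569189. Levels below are the deposited normalized values, which behave as CPM (reads per library brought to one common sum) with a small further factor for each library. A count of 3 reads corresponded to 0.200 in OTD and 0.225 in Control. The ribosomal RNA precursor Rn45s took 2.66% of reads in OTD and 1.47% in Control. A ratio is OTD over Control with a 95% exact Clopper-Pearson interval on the split of reads, which covers counting error only. No p-value can be given with 1 library per group.

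Heme is made by a chain of enzymes that begins and ends in the mitochondrion and passes through the cytosol. In liver the first step, 5-aminolevulinate synthase encoded by Alas1, limits the rate, and heme itself represses it, while much of the product goes into cytochrome P450 enzymes. Heme oxygenase opens the ring to biliverdin, carbon monoxide and iron, and biliverdin reductases turn biliverdin into bilirubin.

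The differences in the 9 genes were small. Alas1 was lower in the OTD pool, with a ratio of 0.839 (0.794 to 0.886), and Hmox1 was higher, with a ratio of 1.22 (1.07 to 1.39). Alad, the second enzyme, was higher by a smaller amount, 1.11 (1.05 to 1.18). The other 6 genes lay between 0.944 for Cpox and 1.10 for Uros.

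The first enzyme of the pathway, Alas1, and the next, Alad, differed in opposite directions, so the promoter sequences of this consecutive pair are shown. They were chosen after their values were seen. Both run 5′ to 3′ on the gene's own strand, from 250 bases before to 50 bases after a RefSeq start site (RefSeq, GRCm38.p6, both genes on the minus strand). The Alas1 window is chr9:106247681-106247980 and the Alad window is chr4:62519860-62520159. Where a gene had 2 windows, the one with more GENCODE transcript starts within 50 bases was taken. Capitals mark matches to GCATGCGC on either strand, the core of sites bound by nuclear respiratory factor 1.
Alas1: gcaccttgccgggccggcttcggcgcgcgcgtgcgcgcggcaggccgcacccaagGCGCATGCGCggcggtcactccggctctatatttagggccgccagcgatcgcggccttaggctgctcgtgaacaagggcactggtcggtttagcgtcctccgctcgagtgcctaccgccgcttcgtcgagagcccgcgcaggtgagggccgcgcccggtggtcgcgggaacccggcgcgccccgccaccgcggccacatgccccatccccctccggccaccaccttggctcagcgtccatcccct
Alad: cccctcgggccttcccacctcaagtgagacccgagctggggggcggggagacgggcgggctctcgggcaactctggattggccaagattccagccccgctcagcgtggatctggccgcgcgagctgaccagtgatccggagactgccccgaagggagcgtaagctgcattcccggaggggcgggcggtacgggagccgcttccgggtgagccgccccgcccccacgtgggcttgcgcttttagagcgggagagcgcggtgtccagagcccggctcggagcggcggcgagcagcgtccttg

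The capitals in the Alas1 window are 2 overlapping matches, 1 on each strand, which span bases 195 to 186 before the start. This motif was added after the sequences had been seen, and 2.71% of 32851 mouse promoter windows of the same length hold it. Of 11 windows for 7 of the 9 genes, the same Alas1 site was found in both Alas1 windows, which overlap, and in 0 windows of the other 6 genes. The antioxidant response element core TGACNNNGC, searched on both strands and held by 12.4% of all windows, was in 0 of the 11. TATAAA on the gene strand, held by 8.32% of all windows, was also in 0 of the 11. Hmox1 and Fech had no entry among these windows.

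Alas1 stood at a level of 171.4 in OTD, against 204.3 in Control, from 2566 and 2720 reads. It was 1.19-fold lower (1.13 to 1.26), and its log2 ratio with a pseudocount of 1 was −0.25. Among 7602 measured genes, those with a mean level of at least 10 over both libraries, 9.19% had a log2 ratio as low or lower. Alas1 ranked 843 by level in OTD and 708 in Control among all genes of the table.

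Alad encodes aminolevulinate dehydratase, the cytosolic enzyme that joins a pair of aminolevulinate molecules into porphobilinogen. Its level was 183.4 in OTD, against 164.8 in Control, with a log2 ratio of 0.15. Of the measured genes, 20.7% had a log2 ratio as high or higher. In the OTD library Alad exceeded Alas1 by level, and in the Control library Alas1 exceeded Alad.

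Uros encodes uroporphyrinogen III synthase, which closes the tetrapyrrole ring. Its level was 10.2 in OTD, against 9.32 in Control, from 153 and 124 reads, with a ratio of 1.10 (0.860 to 1.40). With a mean level of 9.77, Uros fell just below the limit for a measured gene, and it is left out of the counts below. Urod, whose product removes carboxyl groups from uroporphyrinogen, had a level of 55.0 in OTD, against 56.2 in Control, and a ratio of 0.979 (0.886 to 1.08). For both genes the interval held 1, and a difference was not detectable at this depth.

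Cpox, the mitochondrial coproporphyrinogen oxidase, had a level of 184.2 in OTD, against 195.1 in Control. Its ratio was 0.944 (0.894 to 0.996), with an interval that only just lay below 1 and that held 1 once both libraries were scaled to the same total reads (0.929 to 1.04). Ppox, protoporphyrinogen oxidase, had the fewest reads of the measured members, 151 in OTD and 134 in Control. Its levels were nearly equal, 10.09 in OTD and 10.07 in Control, and its ratio of 1.00 had a wide interval, 0.789 to 1.27. Fech encodes ferrochelatase, which inserts iron into protoporphyrin. Its level was 153.1 in OTD, against 145.3 in Control, with a ratio of 1.05 (0.991 to 1.12).

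**Figure D1:**
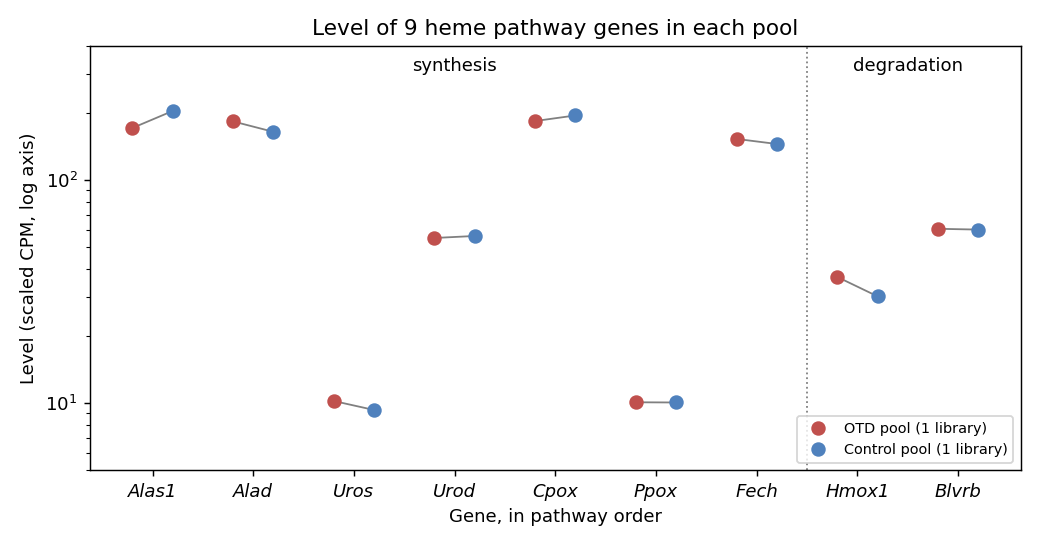
Level of each of the 9 genes (scaled CPM, log axis) in the OTD pool (red) and the Control pool (blue), 1 library each, in pathway order with the degradation genes to the right of the dotted line. Joined points are close together throughout, and Alas1 (171.4 in OTD, 204.3 in Control) and Hmox1 (36.8 in OTD, 30.1 in Control) have the steepest joining lines.

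On the side of degradation, Hmox1 encodes the inducible heme oxygenase, a textbook target of NRF2 that the heme-binding repressor BACH1 holds down. Its level was 36.8 in OTD, against 30.1 in Control, from 551 and 401 reads. The log2 ratio was 0.28, and 9.33% of measured genes had one as high or higher. Blvrb encodes biliverdin reductase B, which also acts as a flavin reductase. Its level was 60.5 in OTD, against 60.0 in Control, and its ratio of 1.01 (0.916 to 1.11) did not differ beyond counting error.

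The limit for calling a gene higher or lower was 1.2-fold, an absolute log2 ratio of at least 0.26. Of the 8 measured members, 1 was at least 1.2-fold higher, Hmox1, and 0 were at least 1.2-fold lower, where 10.7% and 8.3% of all measured genes were (14.6% and 5.22% after scaling to the same total, which left the members' counts at 1 and 0). Hmox1 lay just past this limit and Alas1 just short of it, and the limit fell within the counting interval of each. At 1.5-fold the counts were 0 higher and 0 lower, against 1.51% and 0.908% of all measured genes. The counting interval lay above 1 for 2 members, Alad and Hmox1, and below 1 for 2, Alas1 and Cpox, where it did so for 18.6% and 19.6% of measured genes. After scaling to the same total it lay above 1 for 3, now with Fech at 1.10 (1.03 to 1.16), and below 1 for Alas1 alone at 0.872 (0.826 to 0.920), against 25.9% and 12.9% of measured genes. With 8 genes these counts are close to the background shares. The median log2 ratio of the 8 members was 0.0071, against −0.0063 over all measured genes, with 5 members above 0 and 3 below.

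**Figure D2:**
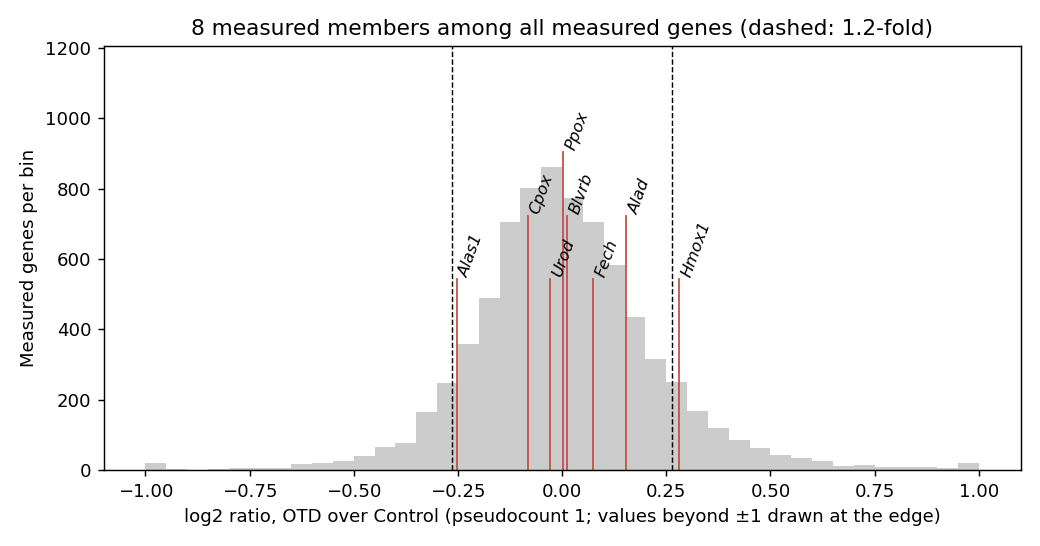
Histogram of log2 ratios (OTD over Control, pseudocount 1) of the 7602 measured genes, with values beyond ±1 drawn at the edge, and a red line for each of the 8 measured members. Dashed lines mark 1.2-fold, and Hmox1 at 0.28 is the only member beyond them, while Alas1 at −0.25 stops short.

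Ratios between genes within a library do not depend on how the libraries were scaled. For every 100 Alas1 reads there were 107.0 Alad reads in OTD and 80.6 in Control, a ratio of ratios of 1.33 (1.23 to 1.43; Woolf interval, counting error only). Hmox1 had 21.5 reads per 100 Alas1 reads in OTD and 14.7 in Control, a ratio of ratios of 1.46 (1.27 to 1.67). Fech had 89.3 in OTD and 71.1 in Control (1.26, 1.16 to 1.36), and Cpox 107.4 in OTD and 95.5 in Control (1.13, 1.04 to 1.21). Ppox had 1.19, with an interval that held 1 (0.941 to 1.52). Alas1 had the lowest ratio of the 9 genes, so a value above 1 for each other member follows from this choice of base, and all of them share the Alas1 reads.

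A separate list gave 3 further enzymes of synthesis and degradation. Hmox2, the constitutive heme oxygenase, went the other way from Hmox1, with 33.1 in OTD and 38.8 in Control and a ratio of 0.855 (0.754 to 0.969). Within each library there were 111.1 Hmox1 reads per 100 Hmox2 reads in OTD and 77.7 in Control, a ratio of ratios of 1.43 (1.196 to 1.71). Exons of Hmox2 overlap those of Cdip1 on the opposite strand, as given below, so Hmox2 reads may be mixed. Blvra, biliverdin reductase A, was below the limit for a measured gene, with 10.4 in OTD and 8.41 in Control (1.24, 0.965 to 1.59). Alas2, the erythroid form of the first enzyme, had 15.0 in OTD and 14.2 in Control (1.06, 0.868 to 1.29).

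**Figure D3:**
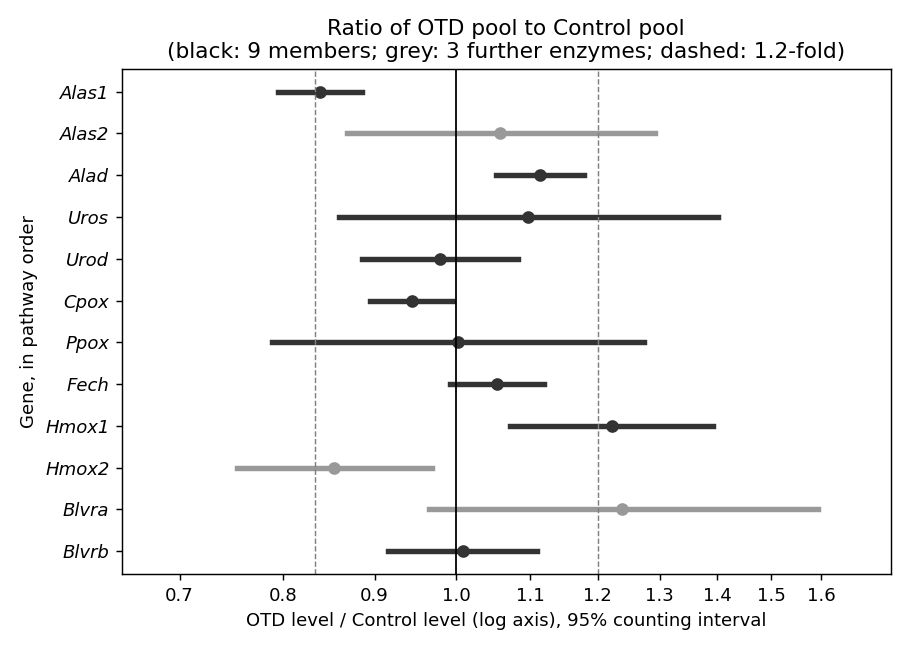
Ratio of the OTD level to the Control level (log axis) with its 95% counting interval for the 9 members (black) and the 3 further enzymes (grey), in pathway order from top to bottom, with dashed lines at 1.2-fold. Alas1 (0.839), Hmox2 (0.855) and, only just, Cpox (0.944) lie left of 1 with an interval that does not hold 1. Alad (1.11) and Hmox1 (1.22) lie right of it, also with such an interval.

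To compare genes, levels were divided by the length of the longest protein-coding transcript in GENCODE M21, in kilobases. Alas1 and Fech have 6 coding transcripts each and Uros 8, and which were present was not measured. The order below depends on this choice of length, which the counting intervals do not cover. Alad was then the highest of the 9 in both libraries, at 147.1 per kb in OTD and 132.1 per kb in Control. Cpox had 59.5 per kb in OTD and 63.0 in Control, Blvrb 58.9 in OTD and 58.4 in Control, and Alas1 50.4 in OTD and 60.1 in Control. In Control the intervals of Cpox, Alas1 and Blvrb overlapped. In OTD those of Cpox and Blvrb overlapped, and the Alas1 interval (48.5 to 52.4) lay below both. Urod followed at 37.0 per kb in OTD and 37.7 in Control. Hmox1 (23.5 in OTD, 19.2 in Control) and Fech (23.3 in OTD, 22.1 in Control) came next, and their intervals overlapped in both libraries, in Control only just. Uros (5.80 in OTD, 5.29 in Control) and Ppox (5.54 in OTD, 5.53 in Control) were lowest, also with overlapping intervals in both libraries.

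**Figure D4:**
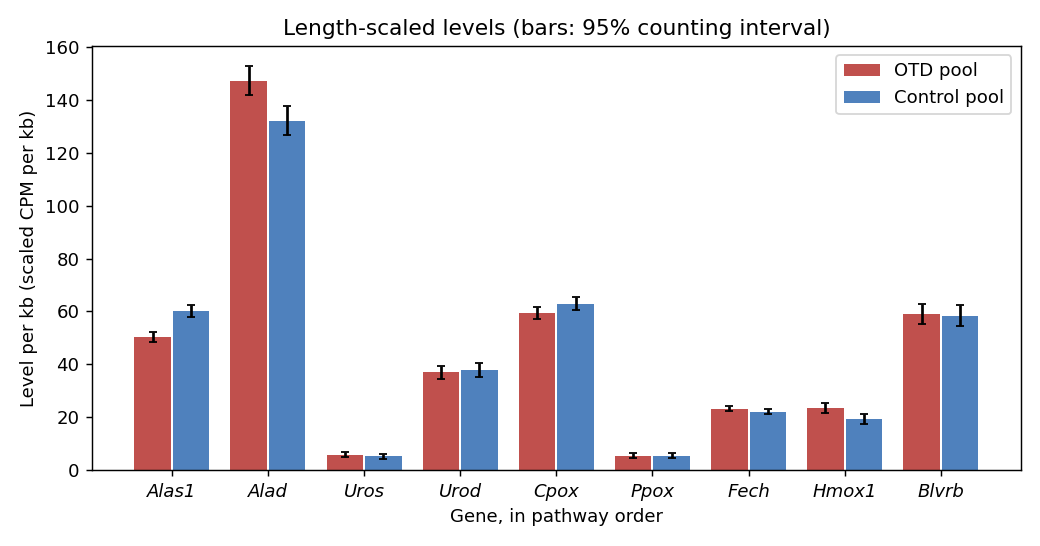
Level per kilobase of transcript (scaled CPM per kb) of the 9 genes in the OTD pool (red, left) and the Control pool (blue, right), with 95% Poisson counting intervals. Alad stands highest at 147.1 in OTD and 132.1 in Control, and Uros and Ppox lowest at under 6 in both pools.

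The marker lists checked which cells could supply these reads. In bulk RNA, fewer cells of a type and less RNA per cell cannot be told apart. Over all 7602 measured genes, 3921 had a log2 ratio below 0 and 3681 above 0 (median −0.0063). The 10 hepatocyte markers were all present, with summed levels of 114524 in OTD and 129577 in Control. The largest part of each sum was Alb, with 69694 in OTD and 81661 in Control. In all, 9 of 10 had a log2 ratio below 0 (median −0.12), or 6 of 10 once both libraries were scaled to equal total reads with Rn45s left out. Kupffer cells are macrophages that take up old red cells and express Hmox1. The list for Kupffer cells and other macrophages held 15 markers, all detected, summing to 766.3 in OTD and 817.8 in Control. Its most abundant gene, Slc40a1, had 275.5 in OTD and 296.7 in Control. Of the 11 measured, 10 had a log2 ratio below 0, or 11 of 15 with no limit on level. Under the scaling without Rn45s it was 8 of 11, where the median over all measured genes was 0.065. Of 15 erythroid markers 12 were in the table and 4 were measured, with a sum of 398.4 in OTD and 317.9 in Control. All 4 had a log2 ratio above 0 (median 0.087), as did 11 of the 12 with no limit on level. Most of the difference was in reads assigned to the alpha-globin gene Hba-a2, with 142.2 in OTD and 80.6 in Control. Hba-a2 was named after its value was seen. The other alpha-globin gene, Hba-a1, had 211.1 in OTD and 197.4 in Control. How reads were split between these copies was not measured. The measured markers other than Hba-a2, which were Hba-a1, Hbb-bt and Alas2, had ratios of 1.05 to 1.07. The part of these cells in the differences of the 9 genes was not tested.

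Of 9 genes that make succinyl-CoA and glycine, the substrates of Alas1, 1 was at least 1.2-fold higher and 0 were lower, beside 10.7% and 8.3% of all measured genes, with a median log2 ratio of −0.033. The higher gene was Shmt2, the mitochondrial serine hydroxymethyltransferase that releases glycine, with 171.6 in OTD and 142.2 in Control and a ratio of 1.21 (1.14 to 1.28). Suclg2, a subunit of succinyl-CoA synthetase and the most abundant of this list, had a ratio of 0.972 (0.930 to 1.02). Named after their values were seen, Suclg1, another subunit of that enzyme, had 0.883 (0.831 to 0.937), and Shmt1, the cytosolic serine hydroxymethyltransferase, 1.15 (1.10 to 1.21).

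Of 26 genes for heme and porphyrin transport, heme carriers and mitochondrial cofactors, 23 were in the table and 21 were measured. Of these, 2 were at least 1.2-fold higher and 0 lower, a share close to the 10.7% of all measured genes that were higher, and the median log2 ratio was −0.037. Abcb10, a transporter of the inner mitochondrial membrane, had 30.7 in OTD and 22.5 in Control, a ratio of 1.36 (1.18 to 1.58). Slc25a37 encodes mitoferrin 1, which brings iron to ferrochelatase, and had 41.5 in OTD and 32.0 in Control, a ratio of 1.30 (1.14 to 1.47). Both genes are best known from red cell precursors, and the erythroid marker sum above was also higher in OTD, mostly through alpha-globin reads. The part of erythroid cells here was not tested. Pgrmc1, a heme-binding membrane protein here the most abundant gene, stood at 1.07 times Control (1.05 to 1.09). Heme a and heme c maturation was represented by 3 genes, of which 2 were measured and 0 passed 1.2-fold, Cox15 with a ratio of 1.02 (0.892 to 1.16). Hccs, below the limit for a measured gene and named after its value was seen, had 0.791 (0.619 to 1.01). Of 4 genes for bilirubin conjugation and export, 0 passed 1.2-fold, with a median log2 ratio of −0.065. Of all measured genes, 10.7% were higher and 8.3% lower, and with so few genes the counts of 0 in both lists are close to these shares. The most abundant of these, the uptake carrier Slco1b2, had a ratio of 0.965 (0.943 to 0.986).

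Of 15 regulators of Alas1 and Hmox1, 14 were measured, 1 past 1.2-fold upward and 6 past it downward in OTD, beside 10.7% and 8.3% of all measured genes. Their median log2 ratio was −0.17, or −0.12 after scaling to the same total reads. Nr1d1, which encodes the clock repressor REV-ERB alpha, had 18.5 in OTD and 47.6 in Control, a ratio of 0.388 (0.336 to 0.448). Its relative Nr1d2 had a ratio of 0.811 (0.722 to 0.911). Nr1i3, the gene of the drug-sensing receptor CAR, had 73.7 in OTD and 99.5 in Control (0.741, 0.683 to 0.803). Hnf4a, a hepatocyte nuclear receptor here also the most abundant, stood at 0.707 times Control (0.688 to 0.725). Foxo1, a forkhead factor of the fasting response, had 0.828 (0.769 to 0.892), and Cebpb, a liver-enriched leucine zipper factor, 0.811 (0.752 to 0.873). Foxo1 (log2 ratio −0.27), Nr1d2 (−0.29) and Cebpb (−0.30) lay nearest the limit, and the count of 6 was not repeated under other scalings. Nrf1, the gene of nuclear respiratory factor 1 and named here for the motif marked at Alas1, was below the limit for a measured gene. It had 8.88 in OTD and 10.3 in Control (0.863, 0.675 to 1.10), with an interval that held 1. The part of any of these regulators in the level of Alas1 was not tested.

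On the Hmox1 side, Mafg, a small MAF partner of NRF2 and BACH1, had 19.4 in OTD and 14.5 in Control, a ratio of 1.34 (1.11 to 1.61). Below 1.2-fold, and named here for their role at Hmox1, were Nfe2l2, Keap1, Bach1 and Mafk. Nfe2l2, the gene of NRF2, had a ratio of 1.13 (1.04 to 1.23). Keap1, its inhibitor, had 1.11 (1.01 to 1.23), and Bach1 1.13 (1.02 to 1.24). Mafk, another small MAF partner, had 1.04 (0.873 to 1.23), with an interval that held 1.

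Hemoproteins, the users of heme, went both ways. The 61 P450 genes of families 1 to 4 summed to 29758 in OTD and 27431 in Control, a ratio of 1.08. Without Cyp2c29, left out after its value was seen, the sum was 25725 in OTD and 26074 in Control, a ratio of 0.987. Of the 45 measured, 13 passed 1.2-fold upward and 6 downward in OTD, beside 10.7% and 8.3% of all measured genes, with a median log2 ratio of 0.017. Among the 10 most abundant, Cyp2c29 (4033 in OTD, 1357 in Control) and Cyp2c50 (1441 in OTD, 959.3 in Control) had the highest ratios, and Cyp4a10 (446.6 in OTD, 1191 in Control) and Cyp2e1 (4858 in OTD, 6152 in Control) the lowest. P450 families resemble each other, so reads of single members can be split between copies. Cyp2b10, the classic CAR target, was named after its value was seen and had a ratio of 5.29 (4.90 to 5.71). The other Cyp2b genes of the list did not share it, with 0.909 (0.882 to 0.936) for Cyp2b9 and 0.974 (0.937 to 1.01) for Cyp2b13. Far in the other direction was Cyp4a14, with 0.201 (0.192 to 0.211). These genes too were named after their values were seen.

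Of 21 other hemoproteins and electron donors, 17 were measured, 2 past 1.2-fold upward and 3 past it downward in OTD (median log2 ratio −0.072), beside 10.7% and 8.3% of all measured genes. Ido2, a heme dioxygenase of tryptophan, had a ratio of 1.31 (1.21 to 1.42), and Cyb5b, the mitochondrial outer membrane cytochrome b5, 1.30 (1.26 to 1.35). Tdo2, the main hepatic heme dioxygenase of tryptophan, had 639.5 in OTD and 849.6 in Control, a ratio of 0.753 (0.732 to 0.773). Por, the reductase that passes electrons to P450 enzymes and heme oxygenase, had 399.7 in OTD and 553.7 in Control (0.722, 0.698 to 0.747). Cybb, the phagocyte oxidase subunit, had a ratio of 0.803 (0.672 to 0.959). Cat, catalase, the most abundant of the list, had 1.05 (1.03 to 1.06).

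**Figure D5:**
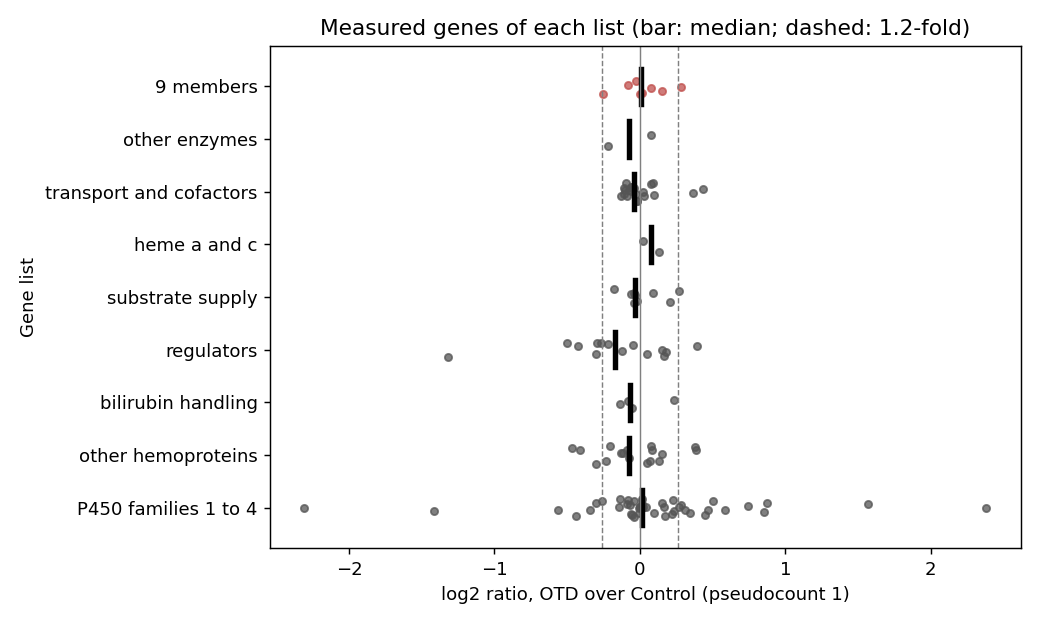
Log2 ratio (OTD over Control, pseudocount 1) of each measured gene in the 9 members (red) and the 8 related lists (grey), with the list median as a black bar and dashed lines at 1.2-fold. The members lie between −0.25 and 0.28, while P450 genes reach from −2.31 to 2.38 and Nr1d1 among the regulators stands at −1.32.

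The 9 genes are protein-coding and lie on 7 chromosomes of GRCm38 (the mm10 assembly; GENCODE M21). Alas1 lies on chromosome 9 at 106233455 to 106248654, and Alad and Urod on chromosome 4 at 62509169 to 62519918 and 116989965 to 116994413. Blvrb and Uros lie on chromosome 7 at 27447978 to 27466144 and 133686243 to 133710072. Cpox lies on chromosome 16 at 58670292 to 58717636, Ppox on chromosome 1 at 171275990 to 171281186 and Hmox1 on chromosome 8 at 75093621 to 75100589. Fech lies on chromosome 18 at 64452914 to 64490251. The pairs that share a chromosome are 54.5 Mb apart (Alad and Urod) and 106.2 Mb apart (Blvrb and Uros).

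Exons of 3 members overlap exons of a gene on the opposite strand. Ppox shares 791 exon bases with B4galt3 (8.28 in OTD, 8.11 in Control), Alas1 shares 465 with the antisense gene 4930500F10Rik and Cpox shares 204 with Gpr15. Among the further enzymes, Hmox2 shares 892 with Cdip1 (75.9 in OTD, 95.3 in Control), also on the opposite strand. Alas2 likewise shares 311 with Apex2 (3.67 in OTD, 3.98 in Control) and 61 with Mir3620. The library kit keeps strand, but whether strand was used in counting is not given in the sources used here, so reads of these overlaps may be mixed. Of the 50-base stretches of the longest coding transcript, 5.12% for Fech, 4.24% for Urod and 0.820% for Cpox also occur in transcripts of other genes, and 0 for the other 6 members.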

How the data were processed

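Liver RNA of 1 OTD pool and 1 Control pool was sequenced after ribosomal RNA depletion with a directional kit, per the labels' protocols. The deposited table holds a normalized signal per gene, made by the authors from reads. The tools named in the submitters' processing notes are edgeR, RSEM, Bowtie2 and Trimmomatic 0.38, with mm10 as the build, and their roles are not stated. The value of 1 read divided 100% of the values in each column without remainder (tolerance 1e-06), so whole reads were recovered. The columns behaved as CPM multiplied by 0.981 in OTD and 1.02 in Control. With 1 library per group no count test could be run on the recovered reads, because no residual degree of freedom exists.

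A pseudocount of 1 was added before log2 ratios were taken, so those of low genes are understated. Measured genes had a mean level of at least 10 (7602 of 15348). Intervals (95%) cover counting error only. Named genes were the 9 members and, of each list, the genes past 1.2-fold and the most abundant. For P450 genes these were the 2 highest and 2 lowest ratios among the 10 most abundant. Genes named outside this rule are marked. In addition, 1 gene was left out of the lists and is not reported here. The members and lists were chosen with earlier results of these data known. Alternatives were pseudocounts of 0.5 and 10, 4 other scalings, other limits on level (50, 1 or none), 1.5-fold and a mean in place of the median. The tools were matplotlib 3.10.9, scipy 1.17.1, pandas 2.3.3, numpy 2.4.6 and Python 3.11.15.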

Additional observations from a re-analysis of the deposited data

How the results depend on the processing

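The count of 1 member at least 1.2-fold higher became 0 with a pseudocount of 10, at a mean level of at least 50, where Hmox1 was no longer measured, and at 1.5-fold. The count of 0 members at least 1.2-fold lower became 1 after scaling to the same upper quartile, where Alas1 had a log2 ratio of −0.27. Under the other alternatives both counts stayed at 1 and 0. The log2 ratio of Alas1 ranged from −0.27 to −0.18, of Hmox1 from 0.22 to 0.35, of Alad from 0.14 to 0.23 and of Cpox from −0.10 to −0.010. Of 54 log2 ratios of single members under the alternatives, 0 moved by more than the half-width of their counting interval, and 4 had the other sign, all of Urod, Ppox or Blvrb. The members' median ranged from −0.0089 to 0.076. Of 70 medians of the related lists, 66 moved by no more than the median half-width of their genes' intervals and 8 had the other sign, among them that of the further enzymes, at 0.077 with a mean level of at least 1 or none required. With both libraries scaled to equal total reads and Rn45s left out, transport and cofactors had 0.035, substrate supply 0.039 and bilirubin handling 0.0075, and at a mean level of at least 50 the other hemoproteins had 0.051. The regulator median stayed below 0, from −0.22 to −0.10. Counts past 1.2-fold in the related lists were not repeated under the alternatives. A mean level of at least 50 left no gene for heme a and heme c maturation and none among the further enzymes. No library could be left out. No paired analysis was possible because the groups hold 1 pool each. The interval counts under other scalings and the marker counts were added after the data had been seen. Reads limit Uros and Ppox most. A level 1.2-fold higher lies within the counting intervals of both, and for Ppox so does one 1.2-fold lower. The 1.2-fold limit also lies within the intervals of Hmox1 (1.07 to 1.39) and Alas1 (1.13-fold to 1.26-fold lower). Which of these 2 passed it is thus within counting error.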
